A study of Mus musculus with 14 samples.

Results

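Neural stem cells (NSCs) that descend from induced pluripotent stem cells (iPSCs) were compared with NSCs that descend directly from embryos. Of the 14 arrays of the series, the 10 arrays of NSCs were used for this comparison. The 6 iPSC-derived arrays were chosen by their labels and come from 3 lines with 2 arrays each: iPS-cNSCs, iPS-NSCs #1, and iPS-NSCs #3. The 4 embryo-derived arrays come from 2 lines with 2 arrays each: brain-NSCs and NED-cNSCs. Embryonic stem cells (ESCs) and mouse embryonic fibroblasts (MEFs) have 2 arrays each and served only as reference levels.

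All iPSCs were made from MEFs of OG2/ROSA26 double-transgenic mice, which carry Oct4-GFP and neo/lacZ, by infection with retroviruses that encode Oct4, Sox2, Klf4, and c-Myc. The iPS-NSC lines #1 and #3 were differentiated in culture. For iPS-cNSCs, iPSCs were aggregated with B6C3F1 embryos, and X-gal-positive NSCs were obtained from the brains of the chimeric embryos, at 13.5 dpc by the labels, under neomycin. NED-cNSCs are X-gal-negative NSCs that were also established from chimeric embryos. They are of normal embryo origin, which is the B6C3F1 host side, and the labels place them at 13.5 dpc in the brain. Brain-NSCs were cultured from 13.5 dpc fetuses that were heterozygous for both ROSA26 and OG2. Every iPSC-derived line therefore carries retroviral insertions and has passed through pluripotency in culture, and neither embryo-derived line has. NED-cNSCs also lack the transgenes that the other 4 lines carry. With 3 lines against 2, several effects cannot be told apart. These are effects of the iPSC origin, the insertions, strain, time in culture, and the single lines. Whether the 2 arrays of a line represent separate cultures is not given in the sources used here, and array-level p-values may therefore reflect technical spread alone.

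NSCs grow in culture with EGF and basic FGF and keep the capacity to form neurons and glia. Reprogramming to iPSCs erases the expression program of the fibroblast, and differentiation has to install that of the neural progenitor. Genes that hold one level in every iPSC-derived line and another in every embryo-derived line, whatever the route of differentiation, are those that separate the lines by source.

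Olig1 and Nes were high in all 5 lines. Olig1, a transcription factor gene of the neural and glial lineage, had deposited log2 values of 14.81 to 15.56 on the 10 NSC arrays and of 7.4 to 8.05 in ESCs and MEFs. Other markers of neural stem cells were lower or less even. On the same scale Vim was 11.89 to 13.46, Sox2 8.46 to 9.37, and Olig2 8.12 to 8.84. Fabp7 ran from 8.35 in iPS-NSCs #3 to 11.59 in iPS-cNSCs, and Sox9 from 8.37 in iPS-NSCs #1 to 10.52 in iPS-cNSCs. Nes, which encodes Nestin, had normalized values between 11.48 and 12.26 on the NSC arrays. Its difference between the sources was -0.06 ± 0.07 (standard error; limma adjusted p = 0.5361), and the Nes levels of the sources overlapped. Of 15 measured neural stem cell markers, 1 passed the criteria described next, beside 1.48% of all genes tested. Their median difference was -0.26. Of the fibroblast markers, Col1a1, Col3a1, and Postn were above background on 0 of 10 NSC arrays and Col1a2 was 7.88 at most. Thy1, which fibroblasts also express, was 12.68 and 12.6 in iPS-NSCs #1 and 7.32 to 9.15 in the other lines. Other genes of the fibroblast list were above background in the NSCs, and Vcam1, Fbln2, Acta2, and Col5a1 had differences of -1.56, -1.02, -0.91, and -0.82 but were not called. Of the neuron markers, Tubb3 and Stmn2 were above background on 0 of 10 arrays and Dcx did not exceed 7.95, but Mapt, which encodes the microtubule protein tau, was 8.47 to 11.76 with its highest level in NED-cNSCs. The endothelial markers Cdh5 and Pecam1 and the microglial marker C1qa were above background on 0 of 10 arrays. Kdr, also of endothelium, was above background on 5 of 10 arrays, at 7.88 at most. Aif1, also of microglia, was above background on 8 of 10 arrays, at 8.01 at most. Of the astrocyte markers, Gfap was above background on 3 of 10 arrays. It was 8.02 and 7.99 in NED-cNSCs and 7.55 at most on the iPSC-derived arrays. Aqp4 and S100b were above background on 2 and 4 of 10 arrays, all iPSC-derived, at 7.86 and 8.01 at most. Aldh1l1 was 8.49 and 8.4 in iPS-cNSCs and 7.99 at most in the other lines. Replicate arrays of a line had Pearson correlations across probes of 0.98911 in iPS-cNSCs and 0.99489 or more in the other 4 lines.

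Across all genes, the lines of one source were not always nearest to each other. Over all kept probes, the Euclidean distance between line means was 44.35 log2 units for iPS-NSCs #1 and #3, the smallest of the 10 pairs. It was 48.91 for brain-NSCs and NED-cNSCs. The 6 pairs of lines from different sources lay between 53.82 and 60.99. The largest distances were both within the iPSC-derived lines, at 65.33 from iPS-cNSCs to iPS-NSCs #1 and 70.99 to iPS-NSCs #3. These distances are a description without a test.

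**Figure D1:**
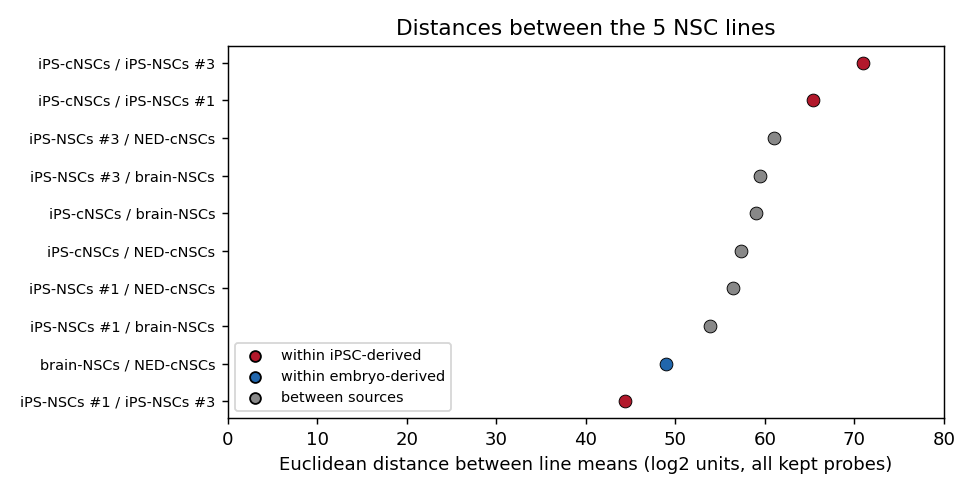
Euclidean distance (x axis, log2 units over all kept probes) between the means of each of the 10 pairs of NSC lines (y axis), coloured by whether both lines share a source. The 6 pairs between sources, from 53.82 to 60.99, lie between the pairs within a source, which run from 44.35 to 70.99.

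The difference by source was computed for 8435 genes as the mean of the 3 iPSC-derived line means minus the mean of the 2 embryo-derived line means, on the normalized log2 signal. A gene was called where limma gave an adjusted p under 0.05, the difference exceeded 2-fold, and all 3 iPSC-derived line means lay on one side of both embryo-derived line means. Adjusted p and fold alone were passed by 200 genes (2.37%), and line means were separated in 1703 genes (20.2%) whatever their size or p. By the full rule 125 genes (1.48% of those tested) were called, 58 higher (0.688%) and 67 lower (0.794%) in iPSC-derived NSCs. In 113 of them, 49 higher and 64 lower, no iPSC-derived array overlapped any embryo-derived array. Of all genes tested 8.68% had no overlap, but the called genes had been selected for separated line means and low array-level p. Their lack of overlap thus largely follows from the rule. In such bulk samples, fewer cells of a type and less RNA per cell cannot be told apart. The median difference was 1.38 in the higher genes, -1.52 in the lower genes, and -0.01 over all genes tested.

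The spread between lines was much larger than that between arrays. When the 5 line means were taken as the replicates, 0 genes passed in limma. The smallest line-level adjusted p was 0.0721, for Tomm22, followed by 0.1004 for Rbm45, and it was at least 0.5335 for the other called genes. At an unadjusted line-level p under 0.05, limma gave 428 genes (5.07% of those tested), among them 101 of the 125 called (1.2% of all genes tested). The calls below therefore describe differences between these 5 lines that exceed the spread between arrays, and not differences shown for iPSC-derived NSCs in general. Without iPS-cNSCs 310 genes were called, without brain-NSCs 270, and without NED-cNSCs 253. Without iPS-NSCs #1 the count was 166, and without iPS-NSCs #3 it was 140. In each case fewer lines had to separate.

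**Figure D2:**
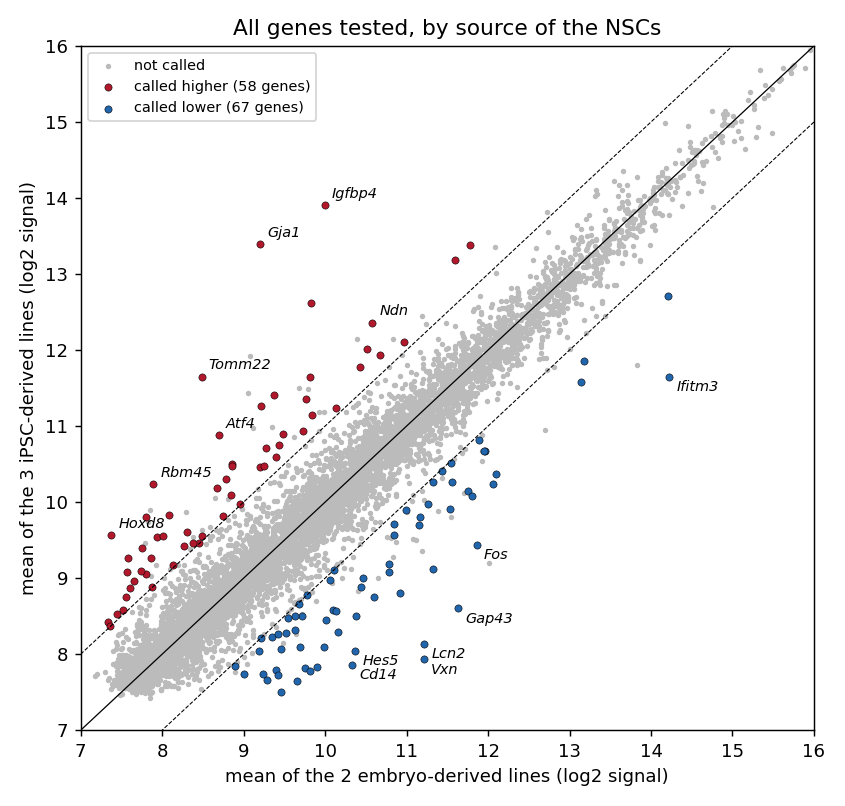
Mean normalized log2 signal of the 3 iPSC-derived lines (y axis) against that of the 2 embryo-derived lines (x axis) for all 8435 genes tested; the dashed lines mark a 2-fold difference and colours mark the genes called. Most genes lie near the diagonal, with 58 called higher and 67 called lower, among them Gja1 (4.19) and Vxn (-3.28).

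Gja1 had the widest separation of the lines. It encodes Cx43, a connexin and the main gap junction protein of astrocytes and radial glia. Its log2 signal was 13.80 and 13.98 in iPS-cNSCs, 13.22 and 13.06 in iPS-NSCs #1, and 13.22 and 13.08 in iPS-NSCs #3, against 10.10 and 10.11 in brain-NSCs and 8.37 and 8.24 in NED-cNSCs. All 6 iPSC-derived arrays were thus higher than the 4 embryo-derived arrays, which themselves differed by line. The difference was 4.19 ± 0.06 (fold change of 18.24, limma adjusted p = 1.77e-16, 0.5335 by line). In ESCs and MEFs the Gja1 level was 13.70 to 14.39, near that of the iPSC-derived lines.

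Igfbp4 encodes a secreted protein that binds insulin-like growth factors. Its signal was 13.10 and 12.75 in iPS-cNSCs, 14.67 and 14.40 in iPS-NSCs #1, and 14.28 and 14.26 in iPS-NSCs #3, compared with 9.67 and 9.81 in brain-NSCs and 10.32 and 10.18 in NED-cNSCs. The groups did not overlap, and the difference was 3.91 ± 0.08 (fold change of 15.06, adjusted p = 3.99e-15 from limma, 0.5335 by line). A second Igfbp4 probe gave 4.06. The gene differed by route as well, with iPS-cNSCs 1.48 below the iPS-NSC lines (limma adjusted p under 0.05 and over 2-fold).

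Tomm22 and Rbm45 had the smallest line-level p, and Atf4 was also among the 12 higher genes with the widest gap. Tomm22 encodes a receptor subunit of the translocase that imports proteins into mitochondria. Its signal was 11.52 to 11.79 on the 6 iPSC-derived arrays, 8.80 and 8.68 in brain-NSCs, and 8.22 and 8.24 in NED-cNSCs. The difference was 3.17 ± 0.06 (fold change of 9.0, limma adjusted p = 2.60e-15). With the line means as replicates the same difference of Tomm22 had a standard error of 0.19. Rbm45 encodes an RNA-binding protein of the developing nervous system, and its signal was 9.98 to 10.40 on the iPSC-derived arrays and 7.79 to 8.02 on the embryo-derived arrays. Its difference was 2.34 ± 0.06 (limma adjusted p = 3.38e-14). Atf4, a transcription factor gene of the amino acid and unfolded protein responses, lay at 10.52 and 10.39 in iPS-cNSCs, 11.14 and 11.27 in iPS-NSCs #1, and 10.91 and 11.04 in iPS-NSCs #3, above 8.95 and 8.98 in brain-NSCs and 8.37 and 8.48 in NED-cNSCs. The Atf4 difference was 2.18 ± 0.06 (adjusted p = 1.00e-13 from limma). In ESCs, Tomm22 was a little below the iPSC-derived lines, at 10.94 and 11.08, whereas Rbm45, at 10.67 and 10.73, and Atf4, at 11.48 and 11.58, were above them. Each of these genes was measured by 1 probe.

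Few partners and targets of these genes were called. Of 15 measured genes of the mitochondrial import machinery (TOM and TIM), Tomm22 alone was called, and the list's median was 0.02. Tomm7, another small TOM subunit, differed by 0.07, and Timm44 by 0.02. Of 27 measured target genes of Atf4, 1 was called, Nupr1, beside 1.48% of all genes tested. By adjusted p alone 9 were higher and 10 lower, and the median was 0.06. Nupr1, a stress-induced chromatin protein gene, was 10.43 and 10.49 in iPS-NSCs #3 but only 8.74 to 9.04 in the other iPSC-derived lines, close to 8.65 to 8.70 in NED-cNSCs (difference 1.15 ± 0.05, limma adjusted p = 1.04e-10). Without iPS-NSCs #3 its difference was 0.63 and without brain-NSCs 0.74, both under 2-fold. Among those not called, the differences ran from -1.15 for Cebpb to 0.87 for Aars, an aminoacyl-tRNA synthetase gene. Asns, encoding asparagine synthetase, had a difference of -0.35, and Ddit3 of 0.09. Both lists were written after values of these genes had been seen.

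**Figure D3:**
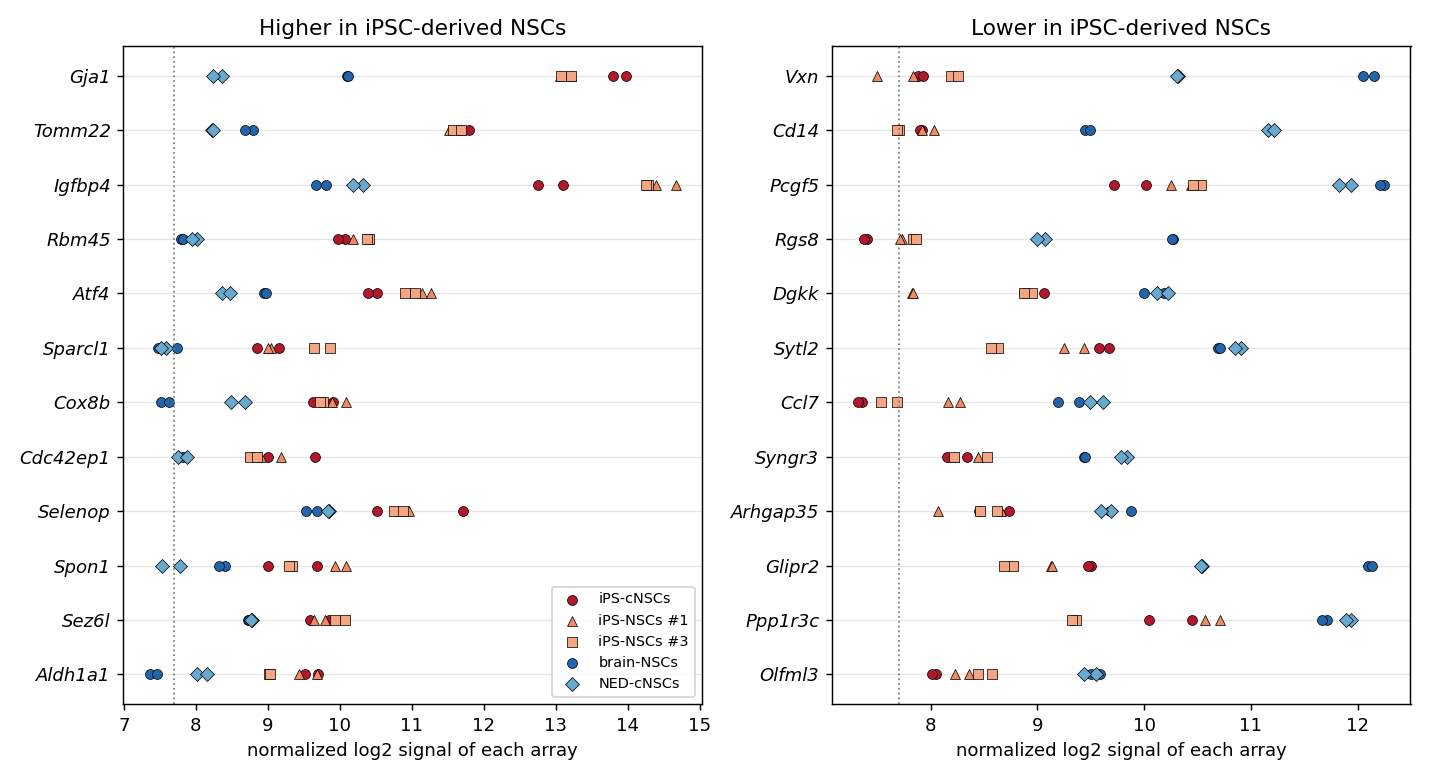
Normalized log2 signal (x axis) of each of the 10 NSC arrays for the 12 genes higher (left) and the 12 lower (right) in iPSC-derived NSCs whose nearest line means lay farthest apart, with 1 point per array and the detection level of 7.7 dotted. The 24 genes were chosen from called genes in which the 6 iPSC-derived arrays do not overlap the 4 embryo-derived arrays. The widest gap is that of Gja1.

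Further glial, secreted, and matrix genes were among the 12 with the widest separation upwards. Sparcl1, which encodes the astrocyte matrix protein hevin, was 8.85 to 9.86 on the iPSC-derived arrays and 7.48 to 7.74 on the embryo-derived ones, where 1 of 4 arrays was above background (difference 1.68 ± 0.07, limma adjusted p = 3.97e-11). Together with Gja1 it made 2 of 8 measured astrocyte genes called higher, beside 0.688% of all genes tested. The list's median was -0.24, and Slc1a2, a glutamate transporter gene, and Aldoc had differences of -0.88 and -0.68, which were under 2-fold and not called. Aldh1a1, encoding a retinaldehyde dehydrogenase, was 9.02 to 9.70 against 7.36 to 8.16 (difference 1.66 ± 0.06). Selenop, which encodes the selenium carrier selenoprotein P, was 10.52 to 11.72 against 9.53 to 9.85 (1.22 ± 0.15), with its highest value on array 1 of iPS-cNSCs. A second Selenop probe gave 0.81, which is under 2-fold. Spon1, a floor plate matrix protein gene, differed by 1.55 ± 0.10, and Cdc42ep1, an effector of the GTPase Cdc42, by 1.25 ± 0.10. Sez6l, a neuronal membrane protein gene, differed by 1.06 ± 0.07. Sparcl1, Aldh1a1, Selenop, Spon1, Cdc42ep1, and Sez6l all passed in limma, and the absence of overlap between single arrays was a condition of their choice.

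Of 10 measured genes of insulin-like growth factor binding and signalling, 2 were called higher, Igfbp4 and Irs2, and 0 lower, beside 0.688% of all genes tested that were called higher. Of the differences 9 were above 0 (median 0.33), and those of Igf2, Igf1r, Igfbp3, and Igfbp7 were 0.13, 0.16, 0.08, and -0.09. Irs2 encodes an adaptor of the insulin and IGF receptors. It was 10.35 and 10.16 in iPS-cNSCs and 11.28 to 11.86 in the iPS-NSC lines, against 9.70 to 9.98 in the embryo-derived lines (difference 1.30 ± 0.06, limma adjusted p = 4.52e-11). Igfbp5 and Igfbp2 had differences of 1.74 and 1.10 but did not separate all lines and were not called.

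Genes of cell surface and matrix remodelling appeared on both sides. Lamb2, which encodes a laminin chain of basement membranes, was 10.03 to 11.07 on the iPSC-derived arrays and 9.05 to 9.50 on the others (difference 1.21 ± 0.07, limma adjusted p = 1.83e-09). Itga7, encoding a laminin-binding integrin, had a difference of -1.26 ± 0.06 (limma adjusted p = 2.44e-10), which came from NED-cNSCs at 10.13 and 10.01. In brain-NSCs Itga7 was 7.84 and 8.05, and this overlapped the iPSC-derived arrays at 7.52 to 7.94. Its difference was -0.20 without NED-cNSCs and -2.33 without brain-NSCs. Of 23 measured matrix and integrin genes 1 was higher, 1 lower, and 21 were not called, beside 1.48% of all genes tested that were called. Chosen after their values were seen, the called genes also included the matrix metalloproteinase genes Mmp2 (1.61) and Mmp14 (1.52), the TGF-beta receptor gene Tgfbr2 (1.59), and the podoplanin gene Pdpn (2.04), whose arrays overlapped. Col16a1, a minor collagen gene, differed by -1.37 and the TGF-beta co-receptor gene Cd109 by -1.87.

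Cox8b and Cox7a1, muscle isoforms of respiratory subunits, were called higher. Cox8b, a muscle isoform of a cytochrome c oxidase subunit, was 9.63 and 9.90 in iPS-cNSCs, 10.09 and 9.89 in iPS-NSCs #1, and 9.77 and 9.72 in iPS-NSCs #3, compared with 7.51 and 7.63 in brain-NSCs, which are at background, and 8.49 and 8.69 in NED-cNSCs. The difference was 1.76 ± 0.07 (limma adjusted p = 1.20e-11). Cox7a1, the muscle isoform of another subunit, was 8.03 to 9.75 against 7.85 to 7.92 (1.01 ± 0.06, limma adjusted p = 6.55e-10, and 0.60 without iPS-NSCs #3). Chchd10 encodes a protein of the mitochondrial intermembrane space that is not itself a subunit, and it was called too, but its arrays overlapped. It was 9.93 and 10.27 in iPS-cNSCs and 8.12 at most in the iPS-NSC lines, and no embryo-derived array was above background, so that it was at least 1.92-fold higher (limma adjusted p = 7.66e-09). Without iPS-cNSCs the Chchd10 difference was 0.31. Of 8 measured genes on a list of tissue-specific subunits, written after these values had been seen, 3 were called higher and 0 lower, 5 were not called, and 2 differences were below 0 (median 0.54). Of all genes tested 0.688% were called higher. The ubiquitous respiratory subunits differed little, with 0 of 34 measured oxidative phosphorylation genes called and a median of 0.08.

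The promoters of these 3 genes are shown because they hold few CpG dinucleotides compared with those of the genes tested. In the RefSeq windows from 250 bases before to 50 after the start (mouse build GRCm38.p6), the Cox7a1 promoter holds 7 CpGs, that of Cox8b 2, and that of Chchd10 5. The median was 21 over the 6914 genes tested that have a window, where the first listed start was used. Over all 27025 genes with a window, tested or not, the median was only 7, which Cox7a1 equals. It was 15 over 51 called higher genes and 20.5 over 50 called lower genes. These are descriptions, and methylation was not measured. CpGs are in capitals, 5′ to 3′ on the strand of the gene, for Cox7a1 at chr7:30183921-30184220 (plus strand), Cox8b at chr7:140900397-140900696 (minus strand), and Chchd10 at chr10:75932880-75933179 (plus strand).
Cox7a1: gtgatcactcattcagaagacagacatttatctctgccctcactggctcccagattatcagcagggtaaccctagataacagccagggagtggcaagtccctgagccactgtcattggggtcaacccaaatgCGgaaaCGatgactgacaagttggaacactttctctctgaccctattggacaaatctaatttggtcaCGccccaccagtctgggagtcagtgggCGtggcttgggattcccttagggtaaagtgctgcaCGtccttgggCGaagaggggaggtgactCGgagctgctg
Cox8b: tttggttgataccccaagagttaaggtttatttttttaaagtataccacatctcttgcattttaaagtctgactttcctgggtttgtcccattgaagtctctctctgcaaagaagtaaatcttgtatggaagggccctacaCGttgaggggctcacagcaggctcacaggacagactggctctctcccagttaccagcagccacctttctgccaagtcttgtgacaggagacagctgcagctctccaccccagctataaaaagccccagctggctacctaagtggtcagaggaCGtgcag
Chchd10: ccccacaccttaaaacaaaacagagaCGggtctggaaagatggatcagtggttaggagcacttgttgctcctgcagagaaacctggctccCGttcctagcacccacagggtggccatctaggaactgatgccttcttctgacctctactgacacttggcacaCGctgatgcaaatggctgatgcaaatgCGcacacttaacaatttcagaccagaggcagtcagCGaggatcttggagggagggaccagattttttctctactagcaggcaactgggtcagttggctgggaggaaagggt

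Vxn led the genes that were lower in iPSC-derived NSCs. It encodes vexin, which promotes neurogenesis in the frog Xenopus. Its signal was 7.88 and 7.93 in iPS-cNSCs, 7.5 and 7.83 in iPS-NSCs #1, and 8.19 and 8.26 in iPS-NSCs #3, all near the detection level of 7.7. It was 12.05 and 12.15 in brain-NSCs and 10.32 and 10.31 in NED-cNSCs. The groups did not overlap, and the difference was -3.28 ± 0.07 (9.68-fold lower, limma adjusted p = 3.99e-15, 0.5831 by line). NED-cNSCs lay 1.78 below brain-NSCs. In ESCs and MEFs Vxn was 7.44 to 7.64.

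Hes5 was the marker of neural stem cells that was called. It encodes a bHLH repressor that Notch signalling induces and that keeps progenitors undifferentiated. It was 8.84 and 9.08 in iPS-cNSCs and 7.38 to 7.80 in the iPS-NSC lines, compared with 10.83 and 10.94 in brain-NSCs and 9.81 and 9.90 in NED-cNSCs. The arrays did not overlap, and the difference was -2.32 ± 0.06 (limma adjusted p = 1.00e-13, 0.7894 by line). A second probe gave -2.29. Of 14 measured Notch pathway genes, 1 was called lower and 0 higher, and 12 had differences below 0 (median -0.36). Of all genes tested 0.794% were called lower. Hey1 and Mfng, at -1.37 and -1.03, did not separate all lines.

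Among the neuron genes, Gap43 was called. Gap43, which encodes a growth cone protein, was 11.40 to 11.80 in the embryo-derived lines and 7.23 to 7.54 in the iPS-NSC lines. In iPS-cNSCs it was 11.16 and 11.13, close to brain-NSCs, so that its difference of -3.03 ± 0.07 (limma adjusted p = 1.07e-14) rested on the iPS-NSC lines. Of 7 measured neuron genes Gap43 alone was called, beside 1.48% of all genes tested. In this list 3 differences were above 0 and 4 below. Mapt, at -1.10, and Gad1 and Map2, at 0.62 and 0.41, did not separate the lines. Syngr3, a synaptic vesicle protein gene, was 8.15 to 8.53 against 9.44 to 9.84 (difference -1.31 ± 0.07, limma adjusted p = 4.50e-10). Chosen after their values were seen, the called genes also held Myt1 (-1.89), Nrcam (-1.63), Fez1 (-1.56), Elavl2 (-1.17), and Dpysl5 (-1.0), which encode a zinc finger factor, an adhesion molecule, a transport adaptor, an RNA-binding protein, and a semaphorin mediator of neurons or their precursors.

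Immediate early genes, which growth factors and other stimuli induce within minutes, gave 5 calls of 22 measured, all lower, compared with 0.794% of all genes tested that were called lower. The list was written after these values had been seen, and its median was -0.10. Egr2, a zinc finger factor gene, was 9.04 and 9.28 in iPS-cNSCs, 8.58 and 8.62 in iPS-NSCs #1, and 8.39 and 8.58 in iPS-NSCs #3, below 9.90 and 10.15 in brain-NSCs and 11.04 and 11.32 in NED-cNSCs. The difference was -1.85 ± 0.07 (limma adjusted p = 1.39e-11). Socs3, the feedback inhibitor of cytokine receptors that signal through STAT3, was 8.21 to 8.74 against 9.46 to 10.55 (-1.56 ± 0.06), and Junb, a subunit of AP-1, 8.38 to 9.52 against 9.73 to 11.23 (-1.56 ± 0.06). Without NED-cNSCs these differences were -1.02 for Socs3 and -0.85 for Junb. Noct, a circadian and serum-induced phosphatase gene, differed by -1.14 ± 0.08, or by -0.69 as the mean of its probes. Fos, the partner of the Jun proteins, was 11.28 and 11.29 in iPS-cNSCs and 11.64 to 12.02 in the embryo-derived lines, whereas it was 8.35 to 8.66 in the iPS-NSC lines. Its difference of -2.42 ± 0.06 (limma adjusted p = 2.87e-14) therefore rested on these 2 lines. The other members stayed closer to 0, with -0.49 for Egr1, 0.10 for Jun, and 0.18 for Dusp1. In NED-cNSCs, Egr2, Junb, and Socs3 were 1.15, 1.41, and 1.09 above brain-NSCs.

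The promoters of Egr2 and Socs3 are shown because both genes were lower in all iPSC-derived lines and their windows hold elements of serum and cytokine response. The CArG box binds serum response factor, and TTCNNNGAA is the core of STAT sites. Both were searched on both strands, together with the cAMP response element TGACGTCA. In the first listed window of each gene, a CArG box was found in 1.39%, the STAT core in 6.51%, and the cAMP response element in 3.41% of the 6914 windows of genes tested. RefSeq lists 5 starts for Egr2, and 4 of their windows, but not that of the first listed start, hold a CArG box. The windows of Fos and Junb hold none of the 3 elements. Among the 50 called lower genes with a window the STAT core was in 7 (14%), and among the 51 higher in 3 (5.88%). By first listed windows, a CArG box was in 2 (4%) of the lower genes, Hes5 and Glipr2, and in 1 (1.96%) of the higher. Egr2 is thus not counted among them. A match is a description and not evidence of binding. The CArG box of Egr2 (chr10:67537619-67537918, plus strand) and the STAT core of Socs3 (chr11:117969317-117969616, minus strand) are in capitals, 5′ to 3′ on the strand of the gene, in RefSeq sequence of build GRCm38.p6.
Egr2: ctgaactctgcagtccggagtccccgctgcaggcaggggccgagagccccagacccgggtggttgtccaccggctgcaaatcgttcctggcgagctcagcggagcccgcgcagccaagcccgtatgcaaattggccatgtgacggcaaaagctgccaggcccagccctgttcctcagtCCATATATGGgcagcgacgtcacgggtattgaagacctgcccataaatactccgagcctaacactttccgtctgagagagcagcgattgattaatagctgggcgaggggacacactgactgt
Socs3: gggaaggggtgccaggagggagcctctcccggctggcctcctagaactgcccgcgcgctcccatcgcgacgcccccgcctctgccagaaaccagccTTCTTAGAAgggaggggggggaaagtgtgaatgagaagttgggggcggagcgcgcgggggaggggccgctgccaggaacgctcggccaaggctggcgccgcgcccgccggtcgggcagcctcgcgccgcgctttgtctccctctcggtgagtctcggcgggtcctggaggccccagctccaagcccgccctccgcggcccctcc

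A list of innate immune and acute phase genes also held genes that were called lower, several of them with a further step between the embryo-derived lines. Of 22 measured genes on this list, which was also written after these values had been seen, 6 were called lower, 0 higher, and 16 were not called, beside 0.794% of all genes tested that were called lower. A total of 19 differences were below 0 (median -0.68). Cd14, the co-receptor for bacterial lipopolysaccharide, was 7.68 to 8.03 on the iPSC-derived arrays, 9.45 and 9.49 in brain-NSCs, and 11.16 and 11.22 in NED-cNSCs (difference -2.47 ± 0.05, limma adjusted p = 4.75e-15). Ccl7, a chemokine that attracts monocytes, was 7.32 to 8.27 against 9.19 to 9.61 (-1.70 ± 0.06). Lcn2, which encodes the iron-sequestering protein lipocalin 2, was 7.13 to 9.40 on the iPSC-derived arrays and 9.57 and 9.53 in brain-NSCs, and 12.95 and 12.84 in NED-cNSCs (-3.08 ± 0.06). Gbp2, an interferon-induced GTPase gene, and Casp4, which encodes an inflammatory caspase, differed by -2.04 ± 0.05 and -1.94 ± 0.07, with NED-cNSCs 2.40 and 1.71 above brain-NSCs. NED-cNSCs thus set much of the size of these differences. Without this line they were -1.41 for Lcn2, -1.61 for Cd14, -0.84 for Gbp2, and -1.09 for Casp4, and without brain-NSCs they were -4.75 for Lcn2 and -3.23 for Gbp2. The mean of all Casp4 probes gave -1.04. Nfkbiz, a nuclear regulator of NF-kappa-B, was 10.51 and 10.37 in iPS-cNSCs and 10.81 and 10.88 in brain-NSCs, so that these lines lay close (difference over all lines -1.45 ± 0.06). Microglia express Cd14 in the brain. Of their markers, C1qa was above background on 0 of 10 NSC arrays, Cx3cr1 on 3, and Aif1 on 8. Cx3cr1 was 7.73 at most, and Aif1 had a difference of -0.04. Whether such cells were present was not tested.

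Interferon response and antigen presentation genes gave 1 call of 16 measured, beside 1.48% of all genes tested that were called. Ifitm3, an interferon-induced membrane protein gene that blocks virus entry, was 12.62 and 12.78 in iPS-cNSCs, 12.87 and 12.77 in iPS-NSCs #1, and 9.56 and 9.30 in iPS-NSCs #3. It was 14.69 and 14.74 in brain-NSCs and 13.66 and 13.79 in NED-cNSCs, above every iPSC-derived array (difference -2.57 ± 0.06, limma adjusted p = 6.60e-14, and -1.46 without iPS-NSCs #3). Ifit2, Irf1, and Ifitm2 had differences of -0.85, -0.77, and -0.51 and were not called, while Stat2 had 0.30 and B2m -0.14. Of the 16 differences 12 were below 0, with a median of -0.16.

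Some of the called genes belong to small families, and a few of these are neighbours. Tle2 and Tle6 are neighbours on chromosome 10, with no measured gene between them, and encode relatives of the Groucho corepressors. Tle6 was 12.30 to 13.86 on the iPSC-derived arrays and 11.43 to 11.72 on the others (1.58 ± 0.06, limma adjusted p = 2.79e-12). Tle2 was 9.31 to 11.40 against 8.64 to 9.17 (1.61 ± 0.08). Tle4, a corepressor gene on chromosome 19, went the other way, at 11.73 to 12.10 against 12.80 to 13.56 (-1.31 ± 0.05), although its other 2 probes differed by only -0.43 and -0.14 and the mean of its probes by -0.63. Rgs8 and Rgs16, next to each other on chromosome 1, and Rgs4 encode proteins that shorten signalling by G proteins. Rgs8 was 7.37 to 7.86, at or near background, on the iPSC-derived arrays and 9.0 to 10.27 on the others (-2.0 ± 0.05). Rgs4 differed by -1.96 ± 0.05 and Rgs16 by -1.15 ± 0.06, both with the highest NSC level in NED-cNSCs. Without that line they differed by -1.02 and -0.36, and without brain-NSCs Rgs16 differed by -1.94. Of 9 measured RGS genes, 3 were called lower, 0 higher, and 6 were not called. Bex2 and Bex4, neighbours on the X chromosome, encode small adaptor proteins of neural tissue and differed by -1.5 ± 0.05 and -1.61 ± 0.05, while Bex1 and Bex3 differed by -0.04 and -0.15. The Bex2 difference was -0.89 without iPS-NSCs #3. Of 6 measured BEX and TCEAL genes 4 were not called, and of 5 measured TLE genes 2 were not. Over all genes tested 1.48% were called, and these family lists were written after values had been seen.

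**Figure D4:**
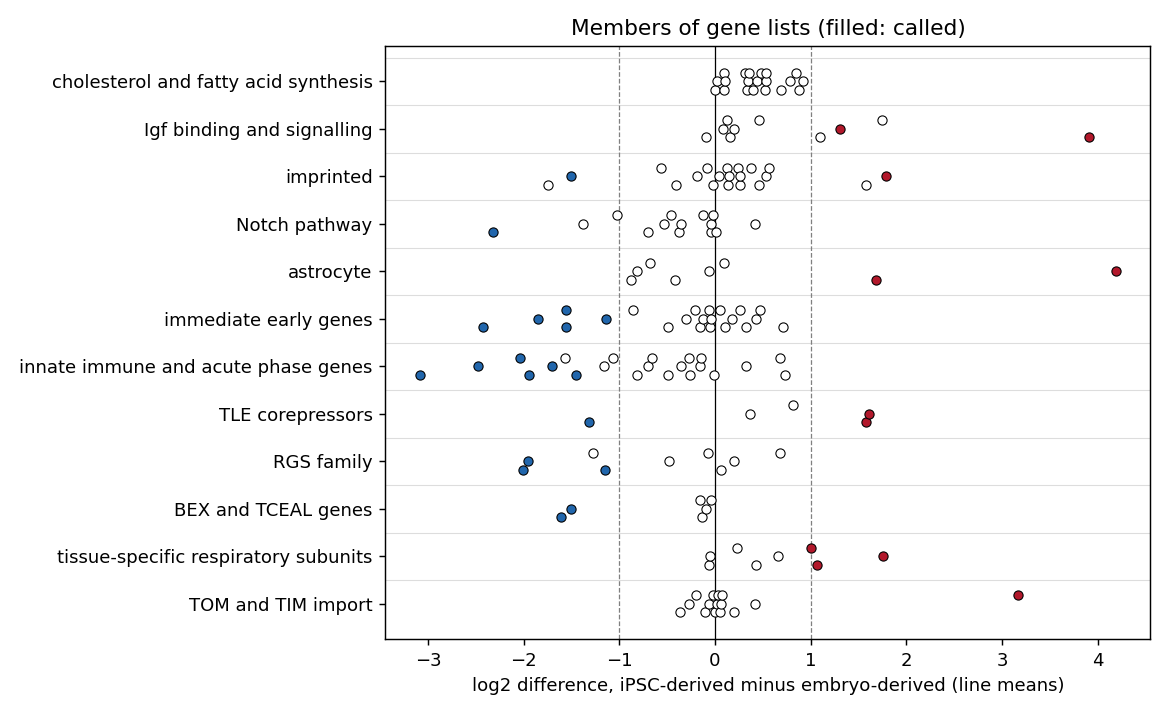
Difference between the sources (x axis, log2, iPSC-derived minus embryo-derived line means) of the measured members of 12 gene lists (y axis), with 1 point per gene, filled where the gene was called and dashed lines at 2-fold. All 20 genes of cholesterol and fatty acid synthesis lie above 0 with none called, whereas the immediate early and innate immune lists hold 5 and 6 genes called lower.

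Pcgf5, Hectd2, and Ppp1r3c are consecutive measured genes on chromosome 19 and were all lower. Pcgf5 encodes a subunit of a Polycomb repressive complex. It was 9.72 and 10.02 in iPS-cNSCs, 10.44 and 10.25 in iPS-NSCs #1, and 10.53 and 10.46 in iPS-NSCs #3, compared with 12.25 and 12.21 in brain-NSCs and 11.94 and 11.83 in NED-cNSCs (difference -1.82 ± 0.07, limma adjusted p = 5.01e-12). Ppp1r3c, a glycogen-targeting subunit of protein phosphatase 1, was 9.32 to 10.71 against 11.67 to 11.94 (-1.73 ± 0.07). Hectd2, a ubiquitin ligase gene, differed by -1.07.

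On chromosome 15, Tomm22 and Atf4 lie in a stretch of 30 measured genes that begins with Cdc42ep1. These 3 genes were called higher and 1700088E04Rik was called lower (-1.09). The 26 genes between them that were not called had differences from -0.50 to 0.54 and a median of -0.04. The higher levels were therefore those of single genes within the stretch. Among the chromosomes, chromosome 7 held the largest share of calls, with 19 of 643 genes (2.95%), 9 higher and 10 lower.

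**Figure D5:**
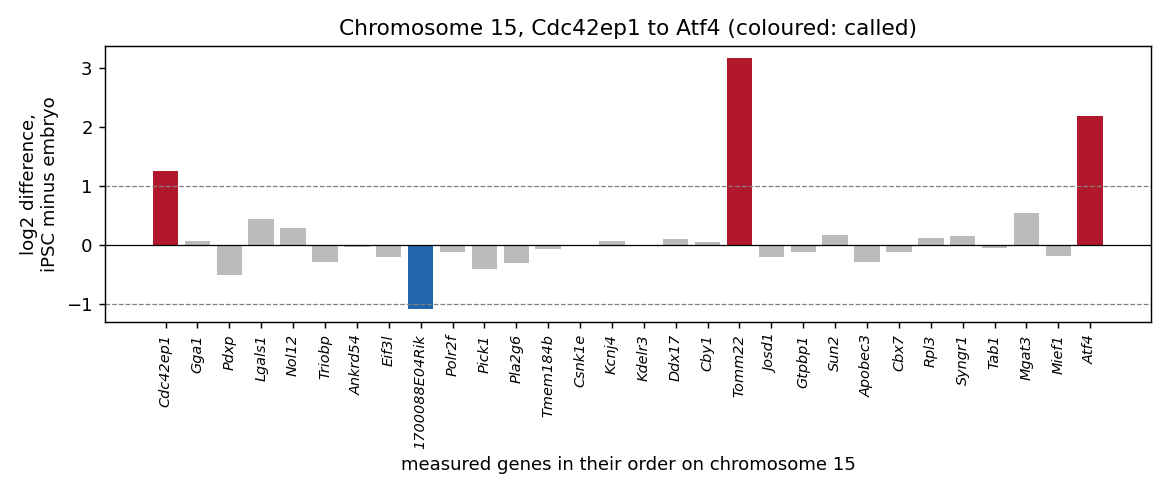
Difference between the sources (y axis, log2, iPSC-derived minus embryo-derived) for the 30 measured genes from Cdc42ep1 to Atf4 in their order on chromosome 15 (x axis), with called genes coloured and dashed lines at 2-fold. Tomm22 (3.17) and Atf4 (2.18) stand among 26 genes that lie between -0.50 and 0.54.

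The other genes among the 12 with the widest separation downwards were lower in all iPSC-derived lines, and some of them also varied within a source. Arhgap35, which acts in axon guidance, was 8.07 to 8.73 against 9.60 to 9.88 (difference -1.22 ± 0.10, limma adjusted p = 8.08e-08). Olfml3, a secreted glycoprotein gene, was 8.01 to 8.57 against 9.44 to 9.59 (-1.24 ± 0.06). Glipr2, Sytl2, which acts in vesicle transport, and Dgkk, a diacylglycerol kinase gene, differed by -2.21 ± 0.05, -1.60 ± 0.06, and -1.57 ± 0.06. A second Glipr2 probe near background gave -0.36, and without brain-NSCs the Glipr2 difference was -1.42. Over all called genes, 36 further kept probes were measured, of which 35 had the same direction and 12 exceeded 2-fold.

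Imprinted genes, which are expressed from 1 parental allele and can lose this control in pluripotent culture, gave 2 calls of 20 measured, in opposite directions. Over all genes tested 1.48% were called. Ndn, a paternally expressed gene that restrains growth in neurons, was 11.94 and 12.42 in iPS-cNSCs, 12.41 and 12.58 in iPS-NSCs #1, and 12.23 and 12.60 in iPS-NSCs #3. It was 9.62 and 9.86 in brain-NSCs and 11.34 and 11.48 in NED-cNSCs, so that the embryo-derived lines differed more from each other than the iPSC-derived lines did (difference 1.79 ± 0.09, limma adjusted p = 4.16e-10, 0.9121 by line). Nnat, a paternally expressed membrane protein gene of the developing brain, was 9.92 and 9.89 in brain-NSCs and 8.63 and 8.52 in NED-cNSCs, and 7.38 to 8.34 in the iPSC-derived lines (-1.51 ± 0.06, limma adjusted p = 1.22e-11). Without brain-NSCs the differences were 0.95 for Ndn and -0.84 for Nnat. The growth-related genes Igf2 and Grb10 differed by 0.13 and 0.26. Mest and Cdkn1c had larger differences, -1.74 and 1.58, but did not separate all lines.

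Traces of the starting cells were looked for in the 4 reprogramming factors and in pluripotency, fibroblast, and silencing genes. Pou5f1, Sox2, Klf4, and Myc had differences of 0.08, -0.29, -0.21, and -0.06, and 0 were called. The probes need not detect the retroviral transcripts, which were not analysed here. Pou5f1 was 7.58 to 8.01 on the NSC arrays and 12.45 and 12.49 in ESCs. No gene was called among 4 measured pluripotency genes, 12 fibroblast genes, 17 genes of retroviral silencing, 13 clustered protocadherins, or 11 genes of the DNA methylation machinery. With 1.48% of all genes called, lists of this size would hold few or no calls in any case. Their medians lay between -0.20 and -0.01, but single members differed over 2-fold without separating the lines, such as Thy1 (2.05), Vcam1 (-1.56), Fbln2 (-1.02), and Gadd45a (1.19). Hoxd8, a positional gene of the trunk, was called among 6 measured Hox genes. It was 10.31 to 10.85 in the iPS-NSC lines and 10.62 and 10.65 in MEFs, while it was not above background in iPS-cNSCs and both embryo-derived lines. Over the embryo-derived lines the iPSC-derived mean was at least 3.78-fold higher (limma adjusted p = 2.34e-14), but this difference was one of the iPS-NSC lines only.

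The called genes were also set against the cells of origin. Of the 58 higher genes, 17 (29.3%) were higher in MEFs than in ESCs and 10 (17.2%) lower, compared with 15.2% and 14.9% of all genes tested. Of the 67 lower genes, 18 (26.9%) were higher in MEFs and 15 (22.4%) lower. MEFs were nearer to the iPSC-derived than to the embryo-derived mean in 34 of 58 higher and 48 of 67 lower genes, against 60% of all genes, and ESCs in 33 and 42, against 46.6%. These counts carry no test.

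Metabolic lists showed no calls. All 20 measured genes of cholesterol and fatty acid synthesis had differences above 0, with a median of 0.42, the highest being 0.92 for Lss, encoding lanosterol synthase. Insig1, which holds back sterol synthesis, differed by 0.88 and Fdps by 0.78. Of these 20 genes 15 passed limma's adjusted p alone and 0 exceeded 2-fold, while 46.5% of all genes passed this p alone. Glycolysis and hypoxia genes had a median of -0.04, with 0 of 21 called, and cell cycle genes one of -0.01, with 0 of 28 called. Cdkn2b, which encodes a cyclin-dependent kinase inhibitor, was called among 17 p53 and senescence genes, at 8.98 to 9.95 against 8.03 to 8.90 (difference 1.02 ± 0.07, limma adjusted p = 2.47e-08). Over all genes tested 1.48% were called.

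How far the lines of a source differ among themselves varied between the called genes. Between iPS-cNSCs and the iPS-NSC lines 680 genes (8.06% of those tested) differed over 2-fold at a limma adjusted p under 0.05, between NED-cNSCs and brain-NSCs 362 (4.29%), and between lines #1 and #3 259 (3.07%). Between the iPS-NSC lines and the embryo-derived lines 342 genes (4.05%) did. Among the 125 called genes, the numbers for the 3 comparisons within a source were 37, 30, and 21. No such difference within a source was found in 50 of the called genes, and in 18 all 6 pairs of lines from different sources differed over 2-fold. The level of the X chromosome regulator Xist did not follow the source. It was 8.13 to 8.49 in brain-NSCs, NED-cNSCs, and iPS-NSCs #1, and 7.38 to 7.64 in iPS-cNSCs and iPS-NSCs #3, which is at background. The Y-linked genes Eif2s3y and Kdm5d were above background on 0 of 10 NSC arrays, and Uty was 8.02 at most.

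On the arrays whose signals could be matched by name, the lowest signal was 83.69 and 84.412 for iPS-cNSCs and between 123.59 and 132.25 for the embryo-derived arrays. The signals of the iPS-NSC lines were not matched, so that the part of signal level in their results was not tested. In the comparison of iPS-cNSCs with the embryo-derived lines, 373 genes (4.42%) passed on the deposited scale. After neqc normalization of the matched signals, all 125 genes kept their direction in this comparison. The rule had chosen these genes for separated line means on the same arrays, so that a kept direction largely follows from the rule. When the signals were only brought to the same median, the median of all genes shifted to 0.63, and relative to it 1 of the 125 genes, Hoxd8, changed direction.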

How the data were processed

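Gene expression was read out with Illumina bead arrays (MouseRef-8 v2), 14 in all, which their labels place in 7 groups. The authors extracted the signals with GenomeStudio 2011.1 (the version in the submitters' processing notes) and deposited log2 values of 25697 probes after quantile normalization. The deposited table of intensities, in which signals had not been normalized, also holds a detection p-value for each probe as the authors' scanner software gave it. Its columns matched 10 arrays by name, and 8 columns that matched no sample were not used.

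Probes were kept where the log2 value was at least 7.7, the level at which detection p-values pass 0.05 on the matched arrays, on at least 7 of 14 arrays. The 12195 kept probes were quantile normalized again, which moved values by 0.162 at most, and the probe with the highest mean stood for each of 8435 genes. A total of 23978 probes have 1 gene symbol in the platform annotation and 1719 have none. On each array 11916 to 12721 probes were detected among the 10 arrays with matched signals, and 2 arrays per line limit the precision.

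The main test was limma 3.58.1 in R 4.3.3 on 7 group means, with lines weighted equally and Benjamini-Hochberg adjustment over all kept probes. A second limma fit took the 5 line means as replicates. An exact permutation of 3 lines against 2 cannot give a p under 0.1 and was not used. A fold against a group with no array above background was computed against the lowest signals above background on those arrays and given as a lower bound. Errors after ± are limma's standard errors of the difference.

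Named genes were the 12 highest and the 12 lowest called genes without overlap of single arrays, by the gap between the nearest line means. Named besides were up to 4 called members of each gene list, whether or not their arrays overlapped, all called members of the lists added later, and, whether called or not, the 4 reprogramming factors, Nes, Xist, and Y-linked genes. Genes outside this rule are said to be chosen after their values were seen or are members of a list. The members, the lists, and the tests were chosen with earlier results of these data known, and 8 of the lists were added after their values were seen. The fits were tested on simulated data in which the NSC lines shared a mean apart from planted differences by source. These data held spread between arrays but none between lines. The test therefore cannot tell how many calls arise from spread between lines. Promoter sequences are from RefSeq (GRCm38.p6). No genome build is given for the arrays, so that genes are placed by chromosome and order only. Alternatives covered filters, normalization, tests, arrays, and lines.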

Additional observations from a re-analysis of the deposited data

Results flagged for a closer look

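Among the called genes named above, several also differed within a source by over 2-fold at a limma adjusted p under 0.05. The flags below leave out the comparison of iPS-NSCs #1 with #3, in which named called genes also passed these limits. Line #1 had the higher level of Ifitm3 (3.39), Bex2 (1.42), Ppp1r3c (1.30), and Lcn2 (1.28). It had the lower level of Cox7a1 (-1.57), Nupr1 (-1.45), and Dgkk (-1.09). The values are log2 differences, and the causes were not tested.

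Between iPS-cNSCs and the iPS-NSC lines, 13 such differences were found. The level in iPS-cNSCs was higher for Gap43 (3.81), Fos (2.77), Chchd10 (2.27), Ifitm3 (1.57), Bex2 (1.54), Hes5 (1.37), and Nfkbiz (1.11). It was lower for Hoxd8 (-3.08), Igfbp4 (-1.48), Lcn2 (-1.45), Tle2 (-1.42), Irs2 (-1.34), and Tle6 (-1.26).

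Between NED-cNSCs and brain-NSCs, 18 were found. NED-cNSCs had the higher level of Lcn2 (3.34), Gbp2 (2.40), Itga7 (2.12), Rgs4 (1.87), Cd14 (1.72), Casp4 (1.71), Ndn (1.67), Rgs16 (1.58), Junb (1.41), Egr2 (1.15), Socs3 (1.09), and Cox8b (1.02). They had the lower level of Gja1 (-1.80), Vxn (-1.78), Glipr2 (-1.58), Nnat (-1.33), Rgs8 (-1.23), and Hes5 (-1.03). The innate immune and immediate early genes of the first group (Lcn2, Gbp2, Cd14, Casp4, Junb, Egr2, and Socs3) were highest in NED-cNSCs among the NSC lines.

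For Selenop, array 1 of iPS-cNSCs, at 11.72, stood apart from the other 5 iPSC-derived arrays, at 10.52 to 10.96. It was the single such array among 120 groups of arrays tested. The test's chance rate of about 1 in 20 holds only for independent arrays. Arrays of the same line were correlated (0.802 with line as a random block). That rate therefore does not apply here, and the count of flagged arrays cannot be compared with chance.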

How the results depend on the processing

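Equal weights for arrays repeat the main fit, since each line has 2 arrays, and could not change the calls. The count of 125 called genes stayed within 1.5 times under other filters, without the second normalization, and with the 10 NSC arrays alone. The same held as the mean of a gene's probes and with the local-pooled-error test. In these settings the count was 111 to 131. It was 119 to 137 when any 1 array was left out (56 to 64 higher, 63 to 74 lower). It moved with the line as the unit. With line means as replicates 0 genes were called, 0 higher and 0 lower, and with line as a random block (correlation 0.802) 36 were, 12 higher and 24 lower, all among the 125. Without iPS-cNSCs 310 were called (142 higher, 168 lower, sharing 111 with the 125), without brain-NSCs 270 (102 and 168, sharing 104), and without NED-cNSCs 253 (141 and 112, sharing 99). The adjusted p alone with separated lines gave 1472 (612 and 860), and a 1.5-fold limit 362 (171 and 191). Replicate numbers did not pair the arrays, as deviations correlated from -0.236 to 0.124 over 21 pairs of groups, 3 of them over 0.1. A fit with the replicate block called 125 genes, 680 by route, and 362 between the embryo-derived lines. Leaving out an array gave 676 to 720 by route. For iPS-cNSCs against embryo-derived NSCs the 373 genes (234 higher, 139 lower) became 1173 after neqc (611 and 562) and 2163 with signals at the same median (2128 and 35), where the median of all genes was 0.63. In that last setting 21 of the 125 genes, among them Fos, Gap43, Bex2, and Nfkbiz, changed sign in this comparison before the shift was taken off. Of the 53 named genes called, 53 were no longer called with line means and 27 with the random block. The sign changed for genes that had not been called. Nes was 0.12 as the mean of its probes, 0.081 without iPS-cNSCs, and 0.22 without brain-NSCs. Myc was 0.048 in the local-pooled-error test, 0.041 without iPS-cNSCs, 0.0024 without brain-NSCs, and -0.13 to 0.024 without single arrays. Pou5f1 was -0.0043 without iPS-NSCs #1. Causes were not tested. Probes near the detection level limit low values.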
